A study of Mus musculus with 2 samples.

Results

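The CC chemokine ligands of the brain's phagocytes are described here: Ccl2, Ccl3, Ccl4, Ccl6, Ccl7, Ccl8, Ccl9, Ccl12, Ccl17 and Ccl24, chosen by name as the rows of the 2 count tables with these gene symbols. They are 10 of the 32285 genes listed, and each symbol matched 1 gene. The cells came from the central nervous system of mice and were labelled microglia-like. The tables are 1 library labelled Cx3cr1 heterozygous (Cx3cr1-/+, replicate 1) and 1 labelled wild type (Cx3cr1+/+, replicate 1). One protocol text stands for both: from heterozygous Cx3cr1 donors, lineage-negative GFP+ and GFP- cells were sorted and given intravenously to CD45.1 hosts, 1 recipient for each donor, after busulfan in 4 doses of 25 mg/kg. The source of the wild-type library among these donors is not stated, nor are sex, age, time after transplantation or the number of animals, and cells of the host were not told apart from donor cells.

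Chemokines are small secreted proteins that draw leukocytes along a gradient, and the CC family is named for a pair of adjacent cysteines. Their receptors, the Ccr proteins, sit on monocytes, T cells, eosinophils, dendritic cells and the phagocytes themselves. In the brain, microglia and the macrophages of the meninges and perivascular spaces are known sources after injury, infection or enzymatic tissue dissociation, and Cx3cr1 is the receptor for fractalkine, a chemokine of another family.

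The libraries held 17828344 UMIs (heterozygous) and 22062823 UMIs (wild type), a UMI being the tag of 1 captured transcript. After removal of cells with under 500 genes or 10% or more mitochondrial UMIs, 1489 heterozygous and 1949 wild-type cells were kept, with a median of 6880 and 6637 UMIs. Both libraries list 339 of the same barcodes, which mark 17.1% of kept heterozygous and 10.2% of kept wild-type cells. Nearly all cells of the Elane-Mpo-Ctsg cluster carried such a barcode (98.9%), so its values carry little weight below. The share was also high in ependymal or choroid plexus-like cells (85.7%), the Igfbp7-Ly6c1-Mgp cluster (34.5%) and the Hist1h1b-Pclaf-Hist1h2ae cluster (27.2%). Clusters were built without chemokine ligands and without sex-linked genes and were named from marker lists. The label of microglia-like cells held for 211 heterozygous and 314 wild-type cells. The other large classes were neutrophil-like (308 and 459 cells), monocyte-like (302 and 616) and dendritic cell-like (163 and 222). An unnamed cluster led by Spp1, Gpnmb and Apoe held 163 and 56 cells. In the heterozygous library the deeper microglia-like cluster had 99 cells with UMIs of Xist and none Y-linked and 0 with the opposite. In the wild-type library that cluster had 96 and 1 such cells, but the classical monocyte-like cluster had 1 and 130, so these wild-type clusters differed in their sex marks. In the heterozygous library the classical monocyte-like cluster had 95 and 3. The patrolling monocyte-like cluster had 135 and 1 heterozygous but 5 and 199 wild-type cells. The immature neutrophil-like cluster had 199 and 8, but 44 and 159. Dendritic cell-like cells had 123 and 5, but 29 and 97. NK cell-like cells had 23 and 1, but 1 and 21.

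Levels are UMIs of a gene scaled to the UMI total of the class in that library (CPM), with exact Poisson intervals at 95%. These and all other intervals cover counting error only, and with 1 library per genotype no difference between genotypes has a replicate check. A class was called rich in complement C1q where C1qa, C1qb and C1qc summed to at least 8000 CPM over both libraries together. This threshold was set after the data were seen. Dendritic cell-like cells were at 9116 CPM by this measure. In the wild-type library alone they were at 7901 CPM, below the threshold. In each library, 7 of the 10 ligands had their highest class level in a C1q-rich class, and 6 of them did so in both libraries. These 6 were Ccl12 in microglia-like cells and Ccl2, Ccl7, Ccl8, Ccl9 and Ccl17 in dendritic cell-like cells. At a finer clustering (resolution 1.0, given below) most dendritic cell-like cells fell in a border-associated macrophage-like cluster or a dendritic cell-like cluster led by Cd209a. Ccl2, Ccl7 and Ccl8 were higher in the macrophage-like cluster and Ccl17 in the Cd209a cluster of both libraries. The order of Ccl9 differed between the libraries. Ccl4 was highest in NK cell-like and Ccl6 in monocyte-like cells of both libraries. Ccl3 was highest in microglia-like cells of the heterozygous library and NK cell-like cells of the wild-type library, and Ccl24 in monocyte-like cells of the heterozygous and dendritic cell-like cells of the wild-type library.

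**Figure D1:**
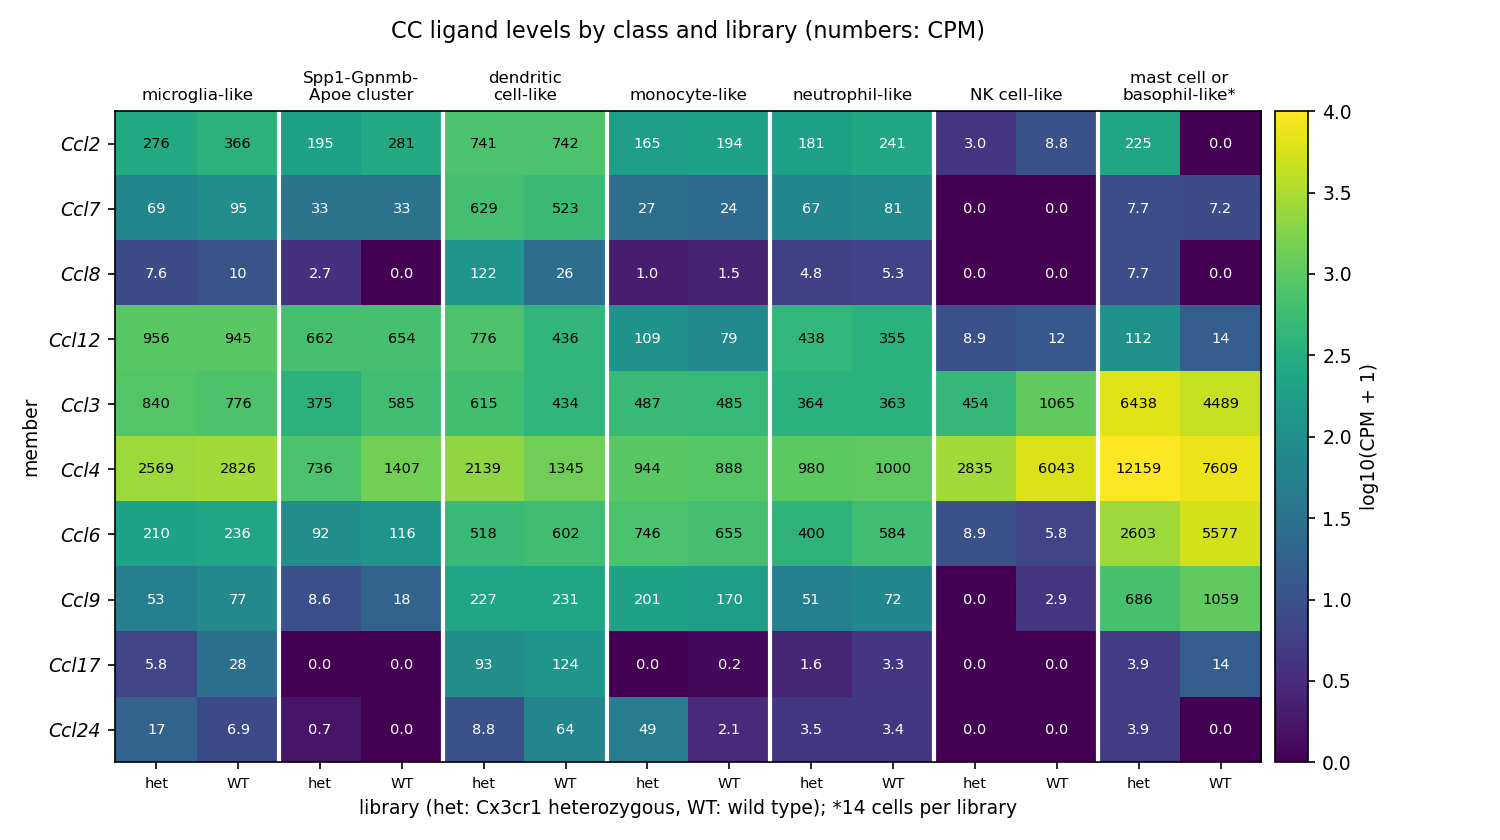
Level of each ligand (rows, CPM printed in each box, colour on a log10(CPM + 1) scale) in 7 classes, with the heterozygous library left of the wild-type library in each. Ccl12 peaks at 956 and 945 CPM in microglia-like cells, Ccl2 and Ccl7 in dendritic cell-like cells, and Ccl3, Ccl4 and Ccl6 are high in mast cell or basophil-like cells, of which there were 14 per library. At the finer clustering Ccl2 and Ccl7 were higher in border-associated macrophage-like cells than in the dendritic cell-like cluster led by Cd209a.

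Of the ligands, 8 lie on chromosome 11 (GRCm38, GENCODE M21) as a pair of groups of 4. Ccl2 (chr11:82035571-82037453), Ccl7 (chr11:82045712-82047525), Ccl12 (chr11:82101845-82103400) and Ccl8 (chr11:82115185-82116799), all on the plus strand, span 81.2 kb. Ccl9 (chr11:83572919-83578636), Ccl6 (chr11:83587882-83593087) and Ccl3 (chr11:83647844-83649355) on the minus strand and Ccl4 (chr11:83662584-83664683) on the plus strand span 91.8 kb. Ccl17 lies at chr8:94810453-94812036 (plus) and Ccl24 at chr5:135569937-135573049 (minus). All 10 are protein coding. Ccl2 overlaps Gm17268 and Ccl6 overlaps E230016K23Rik, each on the opposite strand, and whether counting used the strand is not stated in the sources used here, so reads of these pairs may not be separable.

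Ccl12 and Ccl2, which are ligands of Ccr2 and draw monocytes, had their highest class level in different classes. Ccl12, a mouse chemokine of the monocyte chemoattractant group, was at 956 CPM (910 to 1003) in heterozygous and 945 CPM (904 to 986) in wild-type microglia-like cells. In the Spp1-Gpnmb-Apoe cluster it was at 662 and 654 CPM. Monocyte-like cells had 109 and 78.9 CPM, and NK cell-like cells 8.91 and 11.7 CPM. Ccl12 was thus near one level in the microglia-like class and the Spp1-Gpnmb-Apoe cluster of both libraries and several-fold lower in monocyte-like cells. Both microglia-like clusters held it: 976 and 1002 CPM in the deeper one led by Adamts1, P2ry12 and Siglech, and 889.5 and 793 CPM in the shallower one led by Sparc, Ltc4s and Klk8. After thinning each cell to 2000 UMIs, 56.0% of the 168 heterozygous microglia-like cells and 64.6% of the 237 wild-type ones had a Ccl12 UMI (72.0% and 77.7% without thinning). Thinning left out 43 and 77 shallower cells of this class. The same share was 9.56% and 6.99% of monocyte-like cells. Among NK cell-like cells, taken as lacking the gene and so as a gauge of free RNA, a UMI was seen in 0 of 26 heterozygous cells. For these the limit set by 3 counts is a share of 11.5% of cells with a UMI. In the wild-type library a UMI was seen in 1 of 51 cells. The neutrophil genes S100a8 and S100a9 summed to 778 and 643 CPM in NK cell-like but 3552 and 3492 CPM in microglia-like cells. Neutrophil transcripts were thus rarer in the gauge, so NK cell-like shares, here and below, cannot bound free RNA in other classes.

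Ccl2, the classic monocyte attractant, was highest in dendritic cell-like cells, at 741 CPM (701 to 783) in the heterozygous and 742 CPM (709 to 777) in the wild-type library. Microglia-like cells had 276 and 366 CPM and monocyte-like cells 165 and 194 CPM. Ccl7, a ligand of Ccr2 and other receptors, was still more concentrated there, at 629 CPM (592 to 668) in heterozygous and 523 CPM (495 to 553) in wild-type dendritic cell-like cells. Every other class with at least 20 cells lay far lower. The Hist1h1b-Pclaf-Hist1h2ae cluster of dividing cells had 113 and 52.9 CPM, microglia-like cells 68.7 and 95.02 CPM, neutrophil-like cells 66.8 and 81.3 CPM and monocyte-like cells 26.7 and 23.6 CPM. Dendritic cell-like cells held 56.7% and 53.3% of all Ccl7 UMIs. After thinning, 19.8% of heterozygous and 16.8% of wild-type dendritic cell-like cells had a Ccl7 UMI (25.2% in both libraries without thinning), against none of the thinned NK cell-like cells of either library.

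Ccl8, whose mouse protein acts on Ccr8, was the rarest of the 4, with 260 UMIs in the heterozygous and 139 in the wild-type library. In dendritic cell-like cells it was at 122 CPM (106 to 140) and 25.9 CPM (19.9 to 33.1). Every other class with at least 20 cells was at 10 CPM or below in both libraries. In the heterozygous library 3 dendritic cell-like cells held 193 of that class's 207 Ccl8 UMIs, and the other 160 cells were at 8.51 CPM. Dendritic cell-like cells held 79.6% of Ccl8 UMIs in the heterozygous library and 46.0% in the wild-type library.

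Ccl12 and Ccl8 are neighbours, 11.8 kb apart, with their highest level in different classes, and their promoters are shown to set the pair side by side. Each line is the 250 bases before the gene's start, 5′ to 3′ on the gene's strand, from RefSeq (GRCm38.p6), where 6 of the 10 ligands had an entry (Ccl3, Ccl6, Ccl8, Ccl9, Ccl12 and Ccl17). Ccl12 is chr11:82101595-82101844 (plus) and Ccl8 is chr11:82114935-82115184 (plus). Capitals mark TATAAA and GAGGAA on either strand.
Ccl12: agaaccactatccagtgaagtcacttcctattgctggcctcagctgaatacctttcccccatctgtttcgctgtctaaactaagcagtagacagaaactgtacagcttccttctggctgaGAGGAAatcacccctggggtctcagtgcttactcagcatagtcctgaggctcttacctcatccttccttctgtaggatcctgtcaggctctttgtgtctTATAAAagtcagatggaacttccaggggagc
Ccl8: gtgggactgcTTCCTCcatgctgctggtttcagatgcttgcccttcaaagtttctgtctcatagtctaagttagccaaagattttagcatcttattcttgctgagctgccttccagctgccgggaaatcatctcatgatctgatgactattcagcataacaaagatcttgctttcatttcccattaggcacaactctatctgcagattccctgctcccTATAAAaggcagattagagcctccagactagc
Both hold TATAAA on the gene's strand, 31 to 26 bases before the start in Ccl12 and 32 to 27 bases before it in Ccl8. Of 32851 promoters in the table, 12.4% held TATAAA and 23.3% held GAGGAA, letters found in the binding sequence of the myeloid factor PU.1, on either strand. A match describes letters in this window and is not a binding site.

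Joined clusters can hide sources, and at a finer clustering (resolution 1.0) the dendritic cell-like cells separated into a border-associated macrophage-like and a dendritic cell-like cluster. The border-associated macrophage-like cluster, led by Ctsk, Lyve1 and Acp5 and holding 112 heterozygous and 115 wild-type cells, took 111 and 114 of them. The dendritic cell-like cluster led by Cd209a, Mmp12 and Mgl2 held 33 and 91 cells, of which 33 and 90 came from that class. In the macrophage-like cluster Ccl7 was at 1024 and 1048 CPM and Ccl2 at 1037 and 1141 CPM. In the Cd209a cluster Ccl7 was at 32.4 and 29.1 CPM and Ccl2 at 296 and 401 CPM. Ccl8 was at 202 and 53.2 CPM in the macrophage-like cluster, against 0 UMIs in the Cd209a cluster of both libraries. Ccl12 followed the same order, at 1146 and 831 CPM in the macrophage-like and 37.0 and 50.7 CPM in the Cd209a cluster. The 3 microglia-like clusters of the finer clustering had Ccl12 between 723 and 1014 CPM (heterozygous) and between 782 and 925 CPM (wild type), so at this clustering Ccl12 was highest in the macrophage-like cluster of the heterozygous library, as Ccl8 was. Ccl17 had the opposite order in both libraries and is given below. A further dendritic cell-like cluster, led by Ifi205, Birc5 and Xcr1, held 73 and 66 cells. Of these, 10 and 8 came from the dendritic cell-like class and 63 and 56 from the Hist1h1b-Pclaf-Hist1h2ae cluster. Its Ccl7 was at 126 and 29.8 CPM, its Ccl17 at 6.99 and 2.98 CPM, and it had 0 UMIs of Ccl8.

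**Figure D2:**
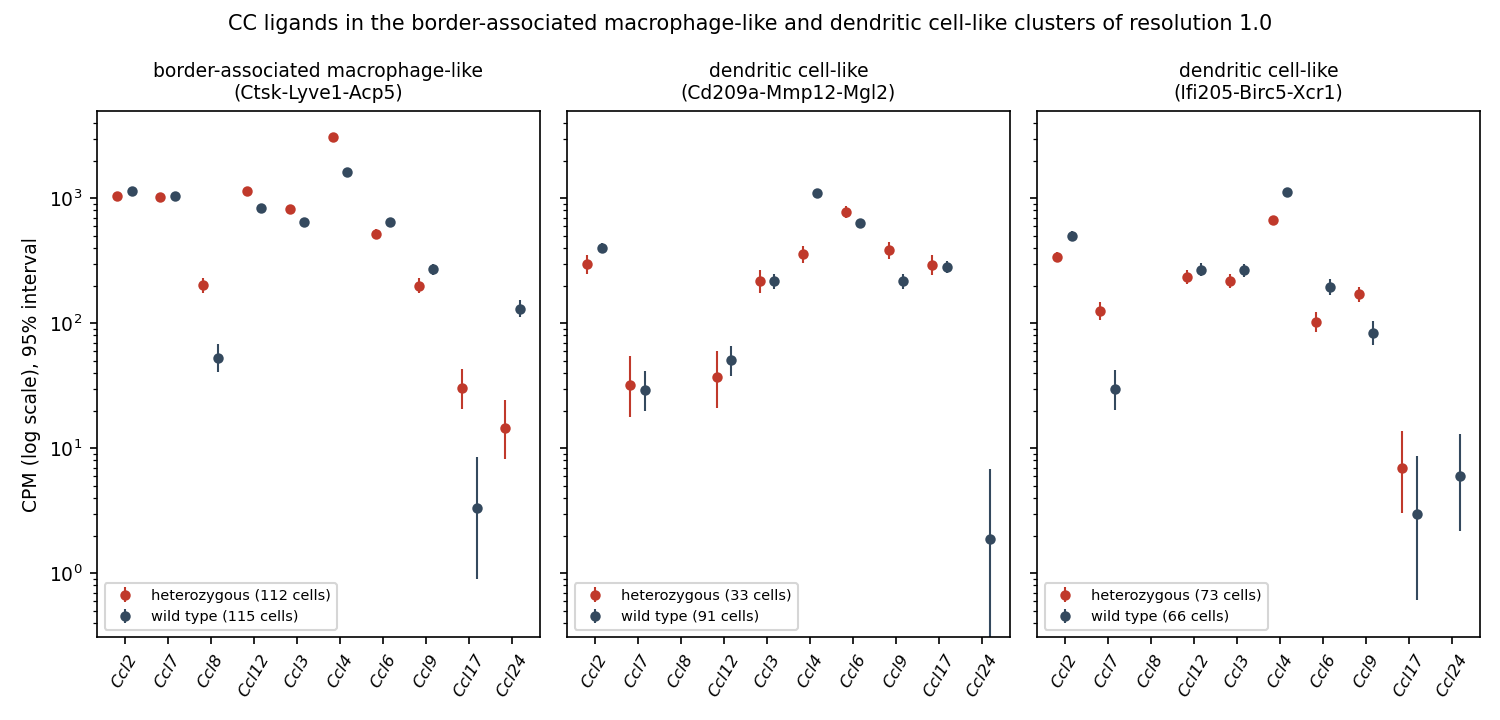
Level of each ligand (CPM, log scale, 95% Poisson intervals for counting error) in 3 clusters of the finer clustering, heterozygous left of wild type; a missing point is 0 UMIs. Of these 3 clusters, the border-associated macrophage-like one is highest for Ccl7, Ccl8 and Ccl12 and the dendritic cell-like one led by Cd209a for Ccl17.

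Ccl3 and Ccl4, the macrophage inflammatory protein pair, of which Ccl3 acts on Ccr1, were abundant in every large class. Ccl4 was the most abundant ligand, with 22754 UMIs in the heterozygous and 27595 in the wild-type library. It was at 2569 CPM (2494 to 2646) in heterozygous and 2826 CPM (2756 to 2898) in wild-type microglia-like cells. In NK cell-like cells (33 and 59 cells), known producers of both, it was at 2835 and 6043 CPM. Monocyte-like cells had 944 and 888 CPM and neutrophil-like cells 980.3 and 1000.4 CPM.

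Ccl3 was at 840 CPM (797 to 884) in heterozygous and 776 CPM (739 to 814) in wild-type microglia-like cells. In NK cell-like cells it was at 454 CPM (385 to 532) and 1065 CPM (958 to 1180), so its highest class was microglia-like in the heterozygous and NK cell-like in the wild-type library. Dendritic cell-like cells had 615 and 434 CPM, monocyte-like cells 487 and 485 CPM and neutrophil-like cells 364 and 363 CPM. Within the microglia-like class the deeper cluster held 1054 and 999.9 CPM of Ccl3 and 3213 and 3688 CPM of Ccl4. The shallower cluster held 146 and 178 CPM of Ccl3 and 482 and 528 CPM of Ccl4. So the pair was several-fold lower in the shallow cluster of both libraries, where Ccl12 was not. Median depth was 9226 and 8735 UMIs per cell in the deeper cluster and 2848.5 and 2621 in the shallower one, and genes of the immediate early and heat shock list, which tissue handling can induce, summed to 30554 and 32976 CPM in the deeper and 2239 and 2819 CPM in the shallower one. The part of depth and of these genes in this difference was not tested.

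After thinning, Ccl4 was seen in 51.8% of microglia-like cells of the heterozygous and 57.4% of those of the wild-type library (64.0% and 62.4% without thinning). In the Igfbp7-Ly6c1-Mgp cluster, whose leading genes include vascular ones and which serves as background for this pair, the share was 6 of 54 and 3 of 20 cells. Over the whole microglia-like class the 19 immediate early and heat shock genes summed to 23880 CPM (heterozygous) and 24749 CPM (wild type). In NK cell-like cells, where Ccl4 was highest, they summed to 5388 and 7101 CPM. Their part in the levels of Ccl3 and Ccl4 was not tested.

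The mast cell or basophil-like cluster, led by Prss34, Mcpt8 and Cpa3, held 14 cells in each library, below the 20 asked of a class in the order above. Its Ccl3 was at 6438 CPM (6132 to 6755) in heterozygous and 4489 CPM (4144 to 4856) in wild-type cells. Its Ccl4 was at 12159 and 7609 CPM. They held 18.8% of Ccl3 UMIs in the heterozygous library and 6.25% in the wild-type library. Ccl3 was detected in 12 heterozygous and 13 wild-type cells of these 14, so the level does not come from a lone cell. Of the 3139 heterozygous Ccl4 UMIs there, the 3 highest cells held 676, 599 and 462. The neutrophil genes S100a8 and S100a9 summed to 48380 CPM in heterozygous and 994 CPM in wild-type cells of this cluster. C1q summed to 3846 and 670 CPM. The part of these transcripts in the levels was not tested.

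Ccl6 and Ccl9, mouse ligands of Ccr1, were both high in monocyte-like and dendritic cell-like cells. Ccl6 was at 746 CPM (715 to 778) in heterozygous and 655 CPM (632 to 678) in wild-type monocyte-like cells. It was at 518 and 602 CPM in dendritic cell-like, 400.4 and 584 CPM in neutrophil-like and 209.6 and 236 CPM in microglia-like cells. Ccl6 was thus lower in microglia-like cells than in each of these classes in both libraries. Mast cell or basophil-like cells had 2603 and 5577 CPM. After thinning, 66.2% of heterozygous and 63.4% of wild-type monocyte-like cells had a Ccl6 UMI (87.1% and 84.1% without thinning), against 2 of 26 and 1 of 51 NK cell-like cells.

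Ccl9 was at 227 CPM (205 to 251) in heterozygous and 231 CPM (213 to 251) in wild-type dendritic cell-like cells. In monocyte-like cells it was at 200.9 CPM (185 to 218) and 170.1 CPM (159 to 182). The intervals of these classes overlap in the heterozygous library and not in the wild-type library. Microglia-like cells had 53.0 and 76.7 CPM, and the Hist1h1b-Pclaf-Hist1h2ae cluster of dividing cells had 198 and 129 CPM. Of thinned cells, 26.4% and 21.2% of dendritic cell-like and 23.2% and 25.2% of monocyte-like cells had a Ccl9 UMI, and none of the NK cell-like cells of either library. Without thinning the shares were 44.8% and 50.5% of dendritic cell-like and 44.4% and 44.8% of monocyte-like cells.

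The monocyte-like clusters divided the ligands among them. In the classical cluster led by Vcan, Fn1 and F13a1 (115 and 200 cells), Ccl2 was at 243 and 363 CPM and Ccl9 at 322 and 264 CPM. In the patrolling cluster led by Cd300e, Fabp4 and Cd36 (162 and 368 cells), Ccl2 was at 61.9 and 42.7 CPM and Ccl9 at 90.2 and 106 CPM. Ccl2 and Ccl9 were thus higher in classical than in patrolling cells of both libraries. Ccl9 in the classical cluster was also above the 227 and 231 CPM of dendritic cell-like cells. That class was its highest only with the monocyte-like clusters joined. Ccl6 was at 789.7 and 743 CPM in classical and 799.5 and 633 CPM in patrolling cells, and Ccl4 at 930.04 and 784 CPM and 1037 and 950.5 CPM, so neither divided them in the same way. Ccl12 was at 50.01 and 48.99 CPM in classical and 41.9 and 38.5 CPM in patrolling cells. The small cluster led by Ear2, Dusp16 and Tgm3 (25 and 48 cells) had Ccl12 at 571 and 411 CPM, the highest of the monocyte-like clusters in both libraries. Its C1q summed to 9267 and 8875 CPM and its 18 microglia markers to 15381 and 15516 CPM, while C1q was at 1778 and 1096 CPM in the classical and 657 and 598 CPM in the patrolling cluster, and the part of these transcripts in its Ccl12 was not tested.

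Neutrophil-like clusters also differed. The mature cluster led by Cstdc4, Stfa1 and Cstdc5 had Ccl6 at 1326 and 1817 CPM, above every class with 20 or more cells. The immature cluster led by Camp, Ltf and Ngp had 333 and 501 CPM. For Ccl4 the order was the reverse, with 153 and 263 CPM in the mature and 1040.4 and 1050.1 CPM in the immature cluster. C1q summed to 1067 and 2530 CPM in the mature and 5867 and 5535 CPM in the immature cluster. Median depth was 5718 and 4558.5 UMIs in the mature and 20085.5 and 18237 in the immature one. The part of C1q-bearing cells and of depth in these levels was not tested.

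Ccl9 and Ccl6 lie 9.25 kb apart, and their promoters are shown because this pair shared the classical monocyte-like cluster but not the mature neutrophil-like one, where Ccl9 was at 9.42 and 23.1 CPM. Ccl6 is chr11:83593088-83593337 (minus) and Ccl9 is chr11:83578637-83578886 (minus), from the same RefSeq table. Capitals mark matches on either strand to TATAAA and to TGANTCA (an AP-1 motif), where N is any base.
Ccl6: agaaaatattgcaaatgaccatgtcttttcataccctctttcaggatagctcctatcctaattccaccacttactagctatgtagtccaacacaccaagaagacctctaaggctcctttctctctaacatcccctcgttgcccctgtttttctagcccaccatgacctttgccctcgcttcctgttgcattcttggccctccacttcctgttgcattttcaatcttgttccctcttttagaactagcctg
Ccl9: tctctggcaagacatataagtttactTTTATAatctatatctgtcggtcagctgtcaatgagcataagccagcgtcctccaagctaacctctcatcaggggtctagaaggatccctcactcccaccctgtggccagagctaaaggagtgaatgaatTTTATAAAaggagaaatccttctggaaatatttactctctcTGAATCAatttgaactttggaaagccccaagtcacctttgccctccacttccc
Ccl9 held both motifs, with TATAAA matches of opposite strands overlapping at 1 place, and Ccl6 held neither, nor GAGGAA. The AP-1 motif TGANTCA was present in 6.75% of all promoters in the table and in none of the other 5 ligands that had an entry. The STAT motif TTCNNNGAA, searched on both strands and present in 7.02% of promoters, was found in Ccl17 and in none of the other 5. No match says only that these letters are not in this window.

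Ccl17, a ligand of Ccr4 made by dendritic cells, was at 92.9 CPM (79.1 to 109) in heterozygous and 124 CPM (111 to 139) in wild-type dendritic cell-like cells. That class held 83.6% and 76.2% of its UMIs. At the finer clustering it was at 294 and 284 CPM in the Cd209a cluster, against 30.3 and 3.32 CPM in border-associated macrophage-like cells. Ccl17 was thus several-fold higher in the Cd209a than in the macrophage-like cluster of both libraries. In the Cd209a cluster 1 cell held 91 of the 127 heterozygous Ccl17 UMIs, and 1 cell held 163 of the 303 wild-type ones. The size of the difference, above all in the heterozygous library, thus leans on 1 cell. Ccl24, which acts on Ccr3 and draws eosinophils, had 213 heterozygous and 221 wild-type UMIs. It was at 48.9 CPM in monocyte-like cells of the heterozygous library and 2.09 CPM in those of the wild-type library. In dendritic cell-like cells the order was the reverse, at 8.82 and 64.3 CPM.

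Ccl17 and Ccl24 counts came from a handful of cells, and this sets how far any value of theirs can be read. One heterozygous monocyte-like cell held 138 of the 213 Ccl24 UMIs (64.8%), and 1 wild-type dendritic cell-like cell held 112 of the 221 (50.7%). Of the Ccl17 UMIs, 2 cells held at least 50% in each library, and the top cell held 48.1% and 40.3%. For Ccl8 it took 2 heterozygous and 10 wild-type cells, the top cell holding 94 and 13 UMIs. Ccl7 took 10 and 14 cells, Ccl2 35 and 44, Ccl12 45 and 51, Ccl4 57 and 93, Ccl3 58 and 103, Ccl9 60 and 114, and Ccl6 92 and 166 cells. Ccl6 was the most evenly spread ligand in both libraries and Ccl24 the least.

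**Figure D3:**
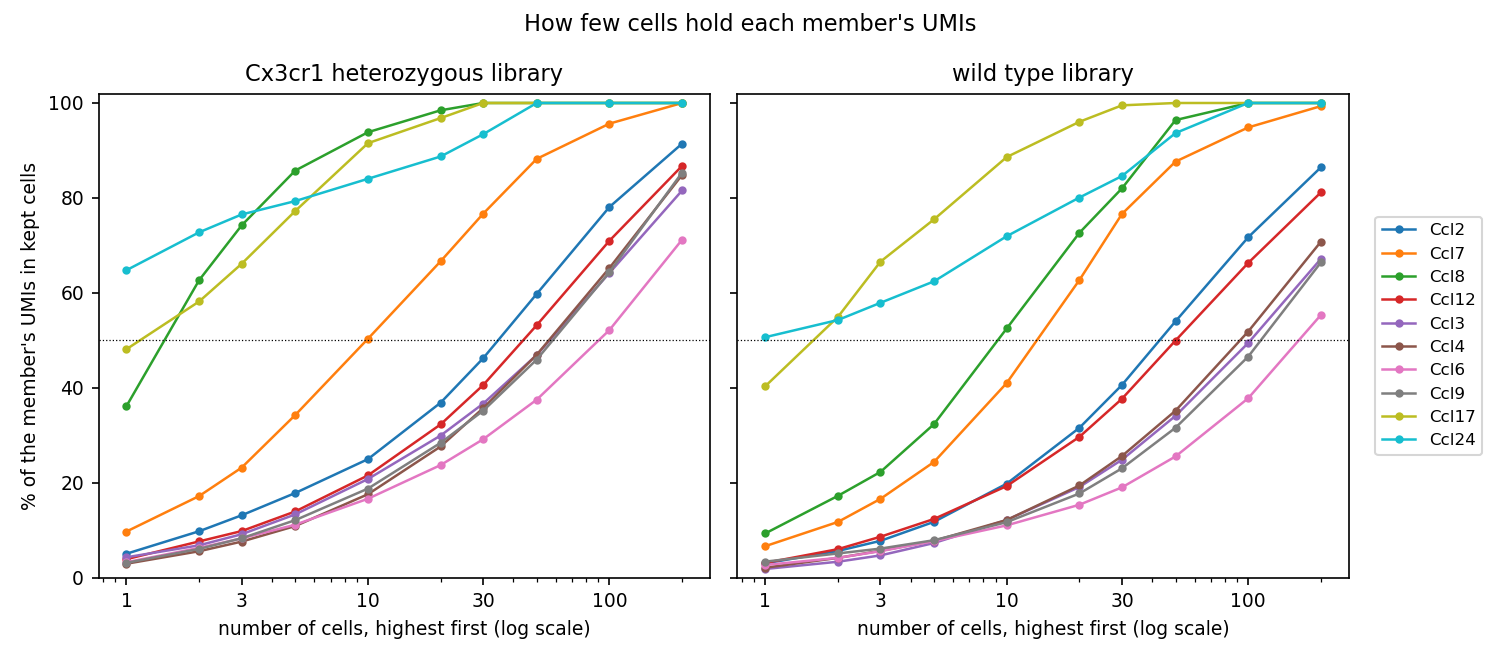
Cumulative share of each ligand's UMIs (%) held by its highest cells (number of cells, log scale), heterozygous library left and wild type right; the dotted line is 50%. Ccl24, Ccl17 and heterozygous Ccl8 pass 50% within 2 cells, and Ccl6 needs 92 heterozygous and 166 wild-type cells.

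Some cells led several ligands. The heterozygous dendritic cell-like cell with the most Ccl2 (210 UMIs) also had the most Ccl7 (184 UMIs), at a depth of 20189 UMIs. The heterozygous dendritic cell-like cell with 94 Ccl8 UMIs also led Ccl6 with 228 UMIs, at a depth of 28431. One heterozygous mast cell or basophil-like cell led both Ccl3 (382 UMIs) and Ccl4 (676 UMIs) at a depth of 19141.

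Ratios of 1 ligand to another within a class do not depend on how the libraries are scaled, and as both are counts of 3′ transcript ends they do not depend on transcript length, though capture may differ between genes. Ccl4 had 3.06 UMIs per Ccl3 UMI in heterozygous and 3.64 in wild-type microglia-like cells. NK cell-like cells had 6.24 and 5.68, and monocyte-like cells 1.94 and 1.83. Dendritic cell-like cells had 3.48 and 3.098 and neutrophil-like cells 2.70 and 2.76. NK cell-like cells had the highest ratio and monocyte-like cells one of the lowest in both libraries.

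Ccl12 per Ccl2 UMI separated microglia-like cells (3.46 and 2.58) from monocyte-like ones (0.660 and 0.407) in both libraries. Within the monocyte-like class it was 0.206 and 0.135 in the classical cluster and 3.34 and 3.30 in the cluster led by Ear2. Dendritic cell-like cells lay between, at 1.05 and 0.587. The ratio was higher in the heterozygous library in these 3 classes, in neutrophil-like cells (2.42 and 1.47) and in the Spp1-Gpnmb-Apoe cluster (3.40 and 2.33). It was not in the Hist1h1b-Pclaf-Hist1h2ae cluster (0.383 and 0.400) or the patrolling cluster (0.676 and 0.903), whose intervals overlap between the libraries. Ccl9 per Ccl6 UMI was 0.438 and 0.384 in dendritic cell-like, 0.269 and 0.260 in monocyte-like and 0.129 and 0.124 in neutrophil-like cells. In the mature neutrophil-like cluster it was 0.0071 and 0.0127.

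**Figure D4:**
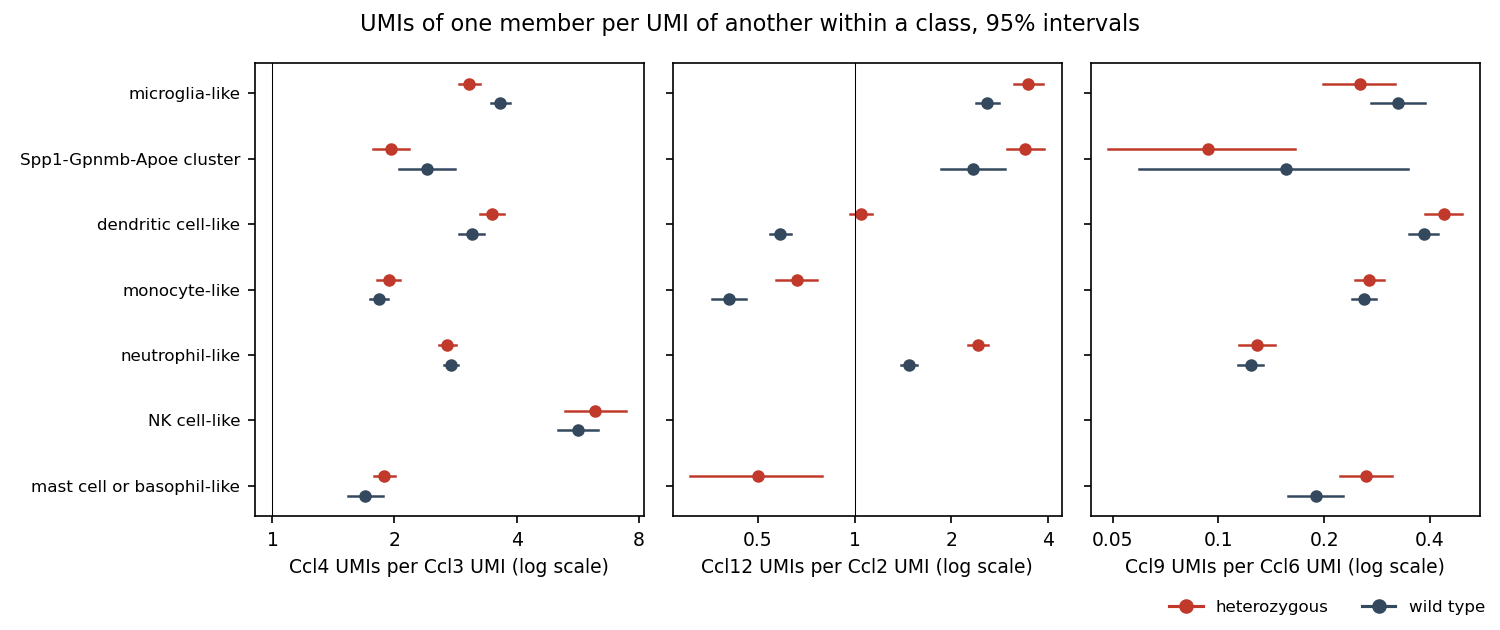
UMIs of 1 ligand per UMI of another (log scale, 95% intervals for counting error) by class, heterozygous above wild type. Ccl12 per Ccl2 is above 1 in microglia-like, Spp1-Gpnmb-Apoe and neutrophil-like cells of both libraries and below 1 in monocyte-like cells (0.660 and 0.407).

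Ligands also met in single cells. Among thinned heterozygous microglia-like cells, Ccl4 was found in 46 of 66 cells with a Ccl3 UMI (69.7%) and 40.2% of those without one. The wild-type library gave 78 of 92 cells (84.8%) with a Ccl3 UMI and 58 of 145 (40.0%) without. The direction was the same in dendritic cell-like cells (74.5% with and 29.7% without in the heterozygous, 79.7% and 39.1% in the wild-type library), monocyte-like cells (60.5% and 33.3%, and 56.8% and 36.3%) and neutrophil-like cells (70.7% and 34.04%, and 62.7% and 32.5%). Ccl2 was found in 79.2% of heterozygous dendritic cell-like cells with a Ccl7 UMI and 16.5% of those without, and in 77.4% and 32.7% of wild-type ones. Ccl4 and Ccl6 did not meet in this way in microglia-like cells: Ccl4 was found in 53.3% of heterozygous cells with Ccl6 and 51.2% without, and in 57.5% and 57.3% of wild-type cells. Cells are not replicates, and a thinned cell without a UMI may still hold the transcript. Some of these classes also join clusters that differed in the levels of both ligands. The microglia-like clusters did so for Ccl3 and Ccl4, and the finer clusters of the dendritic cell-like class for Ccl7 and Ccl2. Such joining alone can make ligands meet more often, and its part in these shares was not tested.

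Ccl12 in neutrophil-like cells moved with C1q, whose transcripts mark microglia and other macrophages. Neutrophil-like cells held 37.9% of heterozygous and 43.4% of wild-type Ccl12 UMIs, at 438 and 355 CPM, while C1qa, C1qb and C1qc summed to 5542 and 5345 CPM in the class. In neutrophil-like cells with C1q under 0.5% of their UMIs (194 and 287 cells), Ccl12 was at 88.0 and 172 CPM. In those with more (114 and 172 cells), it was at 857 and 558 CPM. Ccl4 was at 570.5 and 679.5 CPM in the cells with little C1q and 1471 and 1359 CPM in the others. Ccl2 (108 and 108 CPM with little C1q, 268 and 389 CPM with more), Ccl3 (276 and 252, 468 and 486) and Ccl7 (38.6 and 23.0, 101 and 146) were also higher with more C1q. Ccl6 did not rise with C1q: 406 and 637 CPM with little C1q, and 394 and 525 CPM with more. In the wild-type library Ccl6 was lower with more C1q, its intervals apart. The mature and immature clusters were not separated in this split. Median depth was 11047 and 11590 UMIs in the cells with little C1q and 22957 and 17789 in the others. Doublet calling found 0 doublets, but its automatic thresholds (scores of 0.0885 and 0.128) lay above the highest score of each library (0.0765 and 0.0756), so it says nothing of joined cells, and the part of joined cells or free RNA in these levels was not tested.

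The libraries were then set against each other within each class. In monocyte-like, neutrophil-like, dendritic cell-like and NK cell-like cells, sex marks and genotype label changed together between the libraries. The same held in the Hist1h1b-Pclaf-Hist1h2ae cluster (54 Xist-only and 3 Y-only heterozygous, 1 and 55 wild-type cells). It also held in the Spp1-Gpnmb-Apoe cluster (151 and 0, 8 and 21). The deeper microglia-like cluster kept its marks, with 99 and 0 heterozygous and 96 and 1 wild-type cells. The shallower microglia-like cluster had few marked cells, with 7 and 0 heterozygous but 2 and 12 wild-type cells, so its marks also changed. The part of sex in the ratios below was not tested. A ligand counted as different when the class held at least 50 of its UMIs over both libraries and its ratio, heterozygous over wild type, was beyond 1.5-fold. In microglia-like cells 1 of 8 counted ligands passed, against 6.32% of all 7089 genes counted there. The median log2 ratio of the 8 was -0.29, against 0.04 for all genes. Ccl12 had a log2 ratio of 0.02 (95% interval -0.08 to 0.11), Ccl3 of 0.11, Ccl4 of -0.14 (-0.19 to -0.08), Ccl6 of -0.17 and Ccl2 of -0.41 (-0.57 to -0.24). The ligand that passed was Ccl17 (-2.24), with 10 heterozygous and 60 wild-type UMIs, 59 of the wild-type UMIs in 1 cell, so it rests on that cell. Ccl7 had a log2 ratio of -1.01 in the deeper cluster (54.1 and 109 CPM) and 1.02 in the shallower one (116 and 57.2 CPM), and -0.47 in the class. One wild-type cell held 93 of the 207 wild-type Ccl7 UMIs of the class. The shallower cluster had 47 heterozygous and 34 wild-type Ccl7 UMIs, so that cell lay in the deeper one. Without the top cell of each library the log2 ratio of Ccl7 in the class was 0.05 (-0.36 to 0.46).

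In monocyte-like cells 1 of 8 counted ligands passed, against 5.08% of all 7954 genes. It was Ccl24 (4.55, 3.63 to 5.64), with 141 heterozygous and 10 wild-type UMIs, and without the top cell of each library it was -0.48. Ccl6 was at 0.19, Ccl3 at 0.01, Ccl4 at 0.09 and Ccl12 at 0.47. In neutrophil-like cells 0 of 9 passed, against 6.59% of all 9479 genes. Ccl6 came closest, at -0.54 (-0.61 to -0.48), and its log2 ratio was -0.59 in the immature cluster and -0.46 in the mature one. Within the mature cluster Ccl3 was at -1.40, Ccl4 at -0.78 and Ccl12 at -0.87, on 64 heterozygous and 104 wild-type cells.

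In dendritic cell-like cells 4 of 10 passed, against 10.7% of all 6839 genes. Of these, 3 were higher and 1 lower in the heterozygous library, against 5.95% and 4.74% of all genes. Ccl8 was higher, at 2.23 (1.82 to 2.66), on 207 heterozygous and 64 wild-type UMIs, and this rests on the 3 heterozygous cells that held 193 of them. Without the 3 highest cells of each library its level was 8.51 CPM in heterozygous and 13.7 CPM in wild-type cells, and its log2 ratio on the remaining 14 and 33 UMIs was -0.69 (-1.70 to 0.26). Ccl12 was higher at 0.83 (0.71 to 0.95) and Ccl4 at 0.67 (0.60 to 0.74). Ccl24 was lower at -2.86 (-3.74 to -2.10), on 15 and 159 UMIs. Without the top cell of each library the values were 1.71 for Ccl8, 0.86 for Ccl12, 0.65 for Ccl4 and -2.20 for Ccl24. Without the top 3 they were 0.87 for Ccl12, 0.53 for Ccl4, under 1.5-fold, and -2.53 for Ccl24, on 4 and 34 UMIs. At the finer clustering Ccl4 was higher in heterozygous border-associated macrophage-like cells (0.92, 0.84 to 1.00) and lower in the Cd209a cluster (-1.64), while Ccl12 was at 0.46 in the macrophage-like cluster, under 1.5-fold. Ccl8 was at 1.93 (1.52 to 2.36) there, on the same 207 and 64 UMIs, and Ccl24 was lower, at 14.7 CPM in heterozygous and 131 CPM in wild-type cells. Of the dendritic cell-like cells, the macrophage-like cluster took 111 of 163 heterozygous and 114 of 222 wild-type cells, so the make-up of the class differed between the libraries. The neutrophil genes S100a8 and S100a9 summed to 4768 and 2838 CPM in the dendritic cell-like class and C1q to 10884 and 7901 CPM, and their part in these ratios was not tested.

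NK cell-like cells had 2 ligands with enough UMIs, and both passed, against 16.9% of 1902 genes. Both were lower in the heterozygous library, against 7.26% of genes: Ccl3 at -1.23 (-1.51 to -0.95) and Ccl4 at -1.09 (-1.20 to -0.98). In the Spp1-Gpnmb-Apoe cluster 2 of 6 passed, against 14.7% of 4366 genes. These were again Ccl3 (-0.64) and Ccl4 (-0.93), both lower, against 5.68% of genes, while Ccl12 was at 0.02. S100a8 and S100a9 summed to 3571 and 8885 CPM in that cluster. In the Hist1h1b-Pclaf-Hist1h2ae cluster 6 of 7 passed, against 12.4% of 5560 genes, with Ccl3, Ccl4, Ccl6 and Ccl12 lower (6.96% of genes) and Ccl7 and Ccl9 higher (5.43%). One heterozygous cell held 113 of the 139 Ccl7 UMIs there. Without the top cells Ccl7 was at 0.09 and Ccl9 at 0.43 in that cluster, both under 1.5-fold. In the Igfbp7-Ly6c1-Mgp cluster Ccl4 was the 1 ligand counted and it passed, against 23% of genes, and in the Elane-Mpo-Ctsg cluster 1 of 2 passed (Ccl12), against 20.5%. The Hist1h1b-Pclaf-Hist1h2ae cluster is led by cell cycle genes, and at the finer clustering 63 of its 78 heterozygous and 56 of its 80 wild-type cells fell in the dendritic cell-like cluster led by Ifi205, Birc5 and Xcr1.

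**Figure D5:**
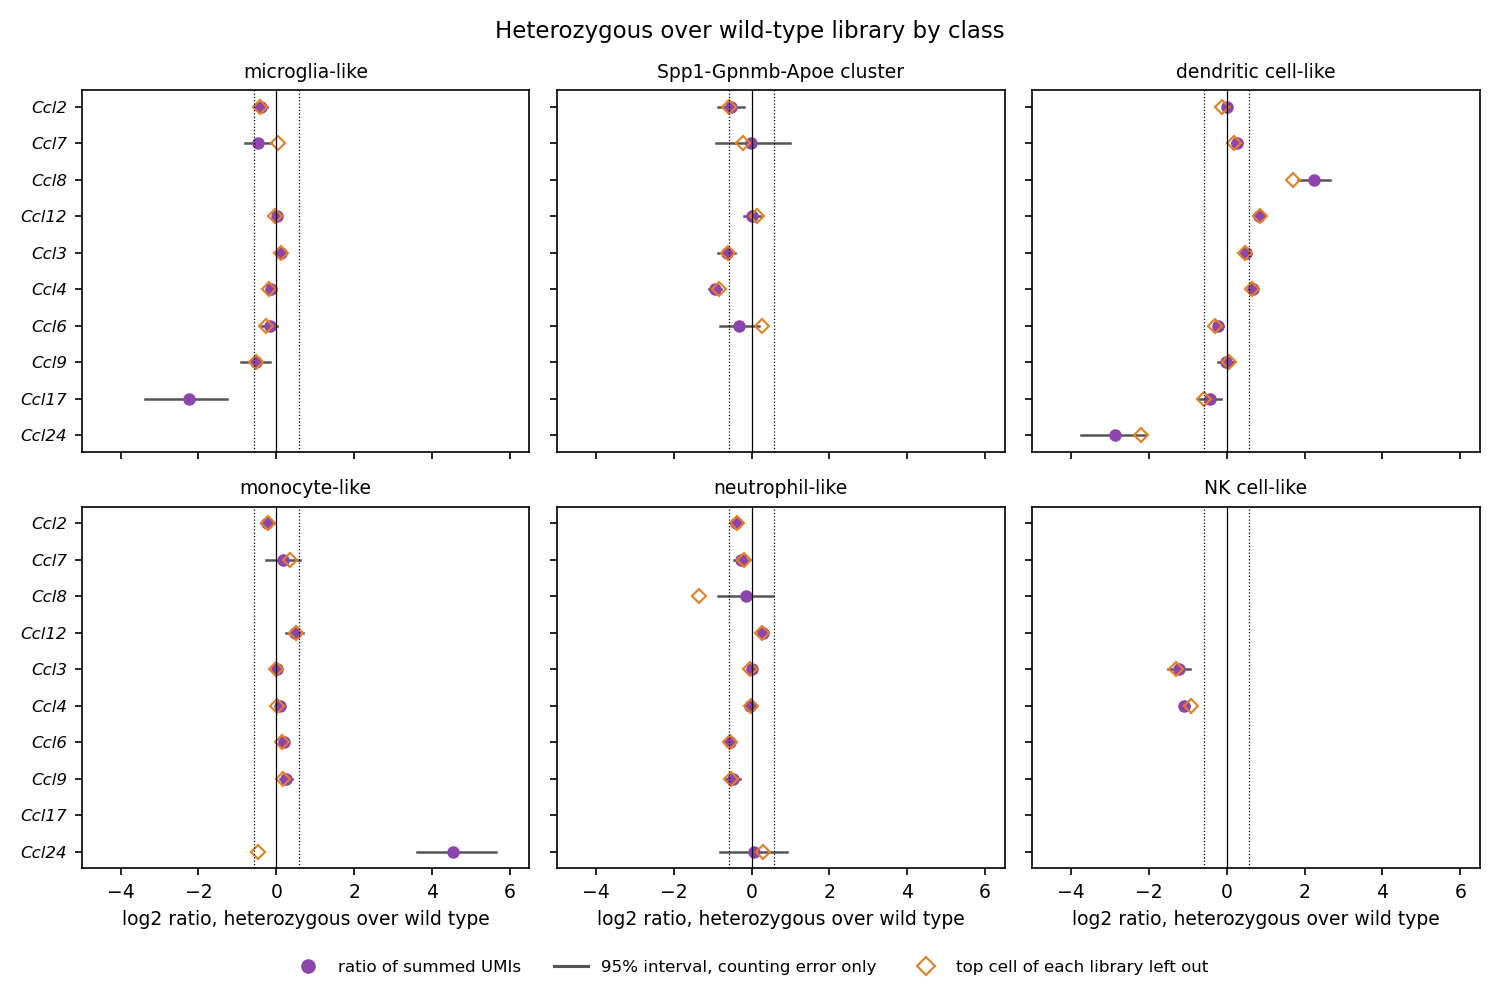
Log2 ratio of each ligand, heterozygous over wild-type library, in 6 classes (purple points, 95% intervals for counting error); open diamonds leave out the cell with the most UMIs of that ligand in each library, and dotted lines mark 1.5-fold. Ccl24 in monocyte-like cells goes to -0.48 without the top cells, Ccl17 in microglia-like cells has no diamond because 2 UMIs remain, and Ccl8 in dendritic cell-like cells is at 1.71 with 1 cell left out and -0.69 with 3 left out (not drawn).

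Receptors of these ligands were unevenly captured. Ccr8 had 0 UMIs in every class listed, Ccr4 had 1 UMI over all of them, and Ccr3 had at most 8 UMIs in a class of either library. Of the CC receptors and decoys, 1 of 4 counted in microglia-like cells was beyond 1.5-fold, and it was higher, against 4.3% of all genes counted there. It was Ccr1, the receptor of Ccl3, Ccl6 and Ccl9, at 113 and 65.6 CPM (log2 ratio 0.78). Ccr1 was also higher in heterozygous monocyte-like (134 and 86.6 CPM) and neutrophil-like cells (345 and 226 CPM) and lower in the Spp1-Gpnmb-Apoe cluster (172 and 332 CPM). Ccr2, the receptor of Ccl2, Ccl7 and Ccl12, was at 307 and 263 CPM in monocyte-like cells.

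Of the CC ligands outside the 10, Ccl5, a T and NK cell chemokine that acts on Ccr1, was at 15809 and 37045 CPM in NK cell-like cells. It was lower in heterozygous microglia-like (21.0 and 49.6 CPM), monocyte-like (9.37 and 22.0 CPM) and neutrophil-like cells (5.58 and 37.8 CPM) too, levels far below that of NK cell-like cells. Ccl22, which shares Ccr4 with Ccl17, had 34 and 170 UMIs in dendritic cell-like cells (log2 ratio -1.78). Among CXC, CX3C and XC ligands, 4 of 6 counted were higher and none lower in heterozygous dendritic cell-like cells, against 5.95% and 4.74% of all genes, including Cxcl14 (2.15), Cxcl10 (1.01) and Pf4 (0.61). In microglia-like cells 2 of 6 were higher and 1 lower, against 4.3% and 2.02% of all genes, with Cxcl10 at 120.0 and 67.5 CPM and Cxcl1 at -1.28. Of NF-kB and inflammatory cytokine genes, 1 of 15 was higher and 0 lower in microglia-like cells (Il1b, 0.85), 0 of 17 passed in monocyte-like and 0 of 17 in neutrophil-like cells, and 1 of 16 was higher (Il1a, 0.85) and 1 lower (Nfkbie, -0.62) in dendritic cell-like cells.

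For the lists that follow, the shares of all genes higher and lower were those just given in microglia-like and dendritic cell-like cells, 3.28% and 1.8% in monocyte-like cells and 2.17% and 4.42% in neutrophil-like cells. Immediate early and heat shock genes gave 1 higher of 19 in microglia-like cells (Hspa1b, 1.45), 0 of 18 beyond 1.5-fold in monocyte-like, 0 of 19 in neutrophil-like and 1 lower of 19 in dendritic cell-like cells (Nr4a1, -0.86). Type I interferon response genes gave 0 of 9 in monocyte-like, 3 lower of 13 in neutrophil-like and 1 lower of 9 in dendritic cell-like cells (Irf7, -1.16). Of the alternative activation genes, 1 of 6 was higher and 2 lower in microglia-like cells. In monocyte-like cells 1 of 6 was higher (Mrc1, 1.07), and in neutrophil-like cells 1 of 11 was higher and 4 lower. In dendritic cell-like cells 1 of 10 was higher (Retnla, 1.00) and 3 were lower, among them Cd163 (-1.12). Cd163 is also a border-associated macrophage marker, and the 12 markers of that list summed to 2652 CPM in heterozygous and 2214 CPM in wild-type dendritic cell-like cells, higher in the heterozygous library.

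Over 28 sums of a cluster in 1 library, the genes whose log2(CPM + 10) was most like each ligand's were named among 8825 genes. The points share libraries and cells, so the coefficients only describe. Ccl3 and Ccl4 were each other's closest gene (Pearson's r 0.94). Ccl12 was closest to C1qc, C1qb and C1qa (0.96, 0.96 and 0.95), and Ccl17 to Cd209a (0.90), Ccl22 and Ccr7 (0.86 each). Ccl7 was closest to Mgl2, Cd209a and Folr2 (0.84, 0.83 and 0.81), Ccl8 to Folr2 (0.84), Ccl6 to Pilra (0.94), Ccl9 to Ifi30 (0.87), Ccl2 to Pdcd2l (0.88) and Ccl24 to Apba1 (0.56).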

How the data were processed

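The deposited values were raw counts of UMIs per gene and cell, from 2 libraries made with the 10x Chromium 3′ kit (v3.1, per the labels' protocols). The authors used Cell Ranger 4.0 and mm10, per the submitters' processing notes, while the matrices name Cell Ranger 5.0.0, per the file headers. The ligands and gene lists were chosen with earlier results of these data known.

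Barcodes were kept from 500 genes upward where mitochondrial UMIs stayed under 10%. Scrublet called 0 doublets, as its thresholds lay above every score, so doublets were not removed. In scanpy 1.11.5, both libraries were clustered together without integration: counts scaled to 10000, log1p, 2000 variable genes without chemokine ligands and sex-linked genes, 30 principal components, 15 neighbours, Leiden (resolution 0.5, seed 0). Names came from 18 marker lists, by the lists' share of the 10 leading genes by fold and at least 3 detected markers. This scoring rule and the C1q threshold of 8000 CPM were set after the data were seen, and 4 of 18 clusters stayed unnamed.

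UMIs were summed per class and library. CPM carry exact Poisson, ratios exact conditional binomial and shares exact Clopper-Pearson intervals, at 95%, and a share of 0 is given the limit of 3 counts. No test across samples exists with 1 library per genotype. All 10 ligands are reported. For likeness the 3 genes of highest Pearson's r qualified, and for each gene list up to 3 genes beyond 1.5-fold. A few of these are not reported here. Other genes named were chosen after their values were seen. On simulated counts the intervals held the true ratio for 96.1% of 7089 genes in microglia-like and 96.1% of 6839 in dendritic cell-like cells, Poisson draws that check the computation and not the spread among cells. Scaling alternatives were edgeR TMM factors and median-of-ratios size factors.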

Additional observations from a re-analysis of the deposited data

Results flagged for a closer look

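Ligands whose log2 ratio, heterozygous over wild type, was beyond 1.5-fold up in one class and beyond it down in another were listed, each with the difference of its log2 ratios. None of these differences was tested, as each rests on 1 library per genotype.

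Ccl4 was higher in heterozygous dendritic cell-like cells (log2 ratio 0.67) and lower in the Hist1h1b-Pclaf-Hist1h2ae cluster (-1.25, a difference of 1.92), in NK cell-like cells (-1.09, a difference of 1.76) and in the Spp1-Gpnmb-Apoe cluster (-0.93, a difference of 1.60). It was also higher in the heterozygous Igfbp7-Ly6c1-Mgp cluster (2.11), which differed from the same classes by 3.36, 3.20 and 3.05. That cluster had 86 heterozygous and 7 wild-type Ccl4 UMIs, 70 of them in 1 heterozygous cell, and its log2 ratio was 0.27 without the top cells.

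Ccl12 was higher in heterozygous dendritic cell-like cells (0.83) and lower in the Hist1h1b-Pclaf-Hist1h2ae cluster (-0.61, a difference of 1.44) and in the Elane-Mpo-Ctsg cluster (-3.75, a difference of 4.58). The Elane-Mpo-Ctsg cluster had 8 heterozygous and 90 wild-type Ccl12 UMIs, 86 of them in 1 wild-type cell.

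Ccl24 was higher in heterozygous monocyte-like cells (4.55) and lower in heterozygous dendritic cell-like cells (-2.86), a difference of 7.41, with 138 monocyte-like and 112 dendritic cell-like UMIs in 1 cell each.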

How the results depend on the processing

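The count of ligands at their highest in a C1q-rich class of both libraries (6) was 4 to 7 over the alternatives run. Scaling between libraries cannot change it, and it could not be had from Xist-only cells, where too few classes remained. For microglia-like cells (1 ligand beyond 1.5-fold) the count was 3 with the stricter cell filter (at least 1000 genes, under 5% mitochondrial UMIs), 5 at resolution 1.0, 4 at 0.25, 0 with all variable genes, 0 in Xist-only cells, 3 without cells showing another class's genes, 2 with TMM, 2 with median-of-ratios factors, 0 without the top cell or the top 3 cells of each library, 2 at a minimum of 10 UMIs and 0 at 200. For monocyte-like cells (1) it was 2 with no cell filter, 2 with the stricter filter, 2 with equal weight per cell, 0 without the top cell or the top 3 and 0 at 200 UMIs. For neutrophil-like cells (0) it was 1 with no filter, 1 with the stricter filter, 3 without cells showing another class's genes, 2 with equal weight, 1 without the top cell, 1 without the top 3 and 1 at 10 UMIs. For dendritic cell-like cells (4) it was 2 at resolution 0.25 and 2 without the top 3 cells (Ccl12 and Ccl17). An unchanged count can hold other ligands. At resolution 1.0 none of these 4 kept its call in dendritic cell-like cells. There Ccl4 turned, Ccl12 was under 1.5-fold, Ccl8 had 0 UMIs in both libraries and Ccl24 had 0 heterozygous UMIs. Leaving out the top 1 or 3 cells was chosen after the data were seen. The cause of these shifts was not tested.

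The log2 ratio of Ccl17 in microglia-like cells turned to 3.66 with no filter, 3.62 with all variable genes and 0.34 without the top cell. Ccl24 in monocyte-like cells turned to -0.48 without the top cell and -1.26 without the top 3, Ccl8 in dendritic cell-like cells to -0.69 without the top 3, and Ccl4 in dendritic cell-like cells to -0.94 at resolution 1.0. In dendritic cell-like cells Ccl8 stayed beyond 1.5-fold in the other 9 of 10 alternatives (1.46 to 2.68), none of which was built to leave out the 3 cells that hold 193 of its 207 heterozygous UMIs. Alternatives were counted only where both libraries held UMIs of the ligand. Resolution 1.0 is thus not among the 10 for Ccl8, with 0 UMIs in either library there. It is also not among the 11 for Ccl24, with 0 heterozygous UMIs. Ccl24 stayed beyond 1.5-fold in 10 of 11 alternatives (-5.67 to -2.20) and was under the 50 UMIs asked without the top 3, Ccl12 in 7 of 12 (0.21 to 1.02) and Ccl4 in 5 of 12 (-0.94 to 0.70). Of the recomputed log2 ratios 291 moved by less than their counting interval, 125 moved by more and 7 turned. Of the shares, 47 moved by less and 107 by more.

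No paired analysis was possible because the groups compared share only 1 replicate number. Xist-only monocyte-, neutrophil- and dendritic cell-like cells were under 50 in a library and were not compared.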
